A study of Homo sapiens with 4 samples.

Results

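The genes described here are 49 factors that build ribosomes, together with MYC, the transcription factor that drives many of them. They were taken by gene symbol from the probe annotation of an Illumina expression array, keeping probes with a detection p-value under 0.01 on at least 1 of 4 arrays. Of the 50 genes, 48 had a probe named for them alone, 47 had a detected probe and 44 were detected on all 4 arrays, out of 10457 and 8554 genes in all. The 47 genes were read by 62 detected probes. WDR43 and GNL3 had no probe named for them alone, and the only NPM1 probe had detection p-values of 0.030 to 0.12 and was not well above background on any array.

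The cells were H9, 1 established line of human embryonic stem cells, cultured in the defined medium E8 on a Matrigel coating and collected on day 2. The 4 groups, with 1 array each, were high density (confluence over 90%) in E8 with 20 mM extra sodium bicarbonate, high density in plain E8, low density (confluence under 70%) in E8 with the same bicarbonate, and low density in plain E8. They are called the dense bicarbonate, dense control, sparse bicarbonate and sparse control arrays here. Per the series title, the study asked about suppressing medium acidosis in dense cultures. With 1 array per group no difference has a replicate check, no p-value is given, and the number of arrays limits the precision.

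A human ribosome begins as a long precursor RNA that RNA polymerase I makes in the nucleolus. Small nucleolar ribonucleoproteins modify that RNA, the small subunit processome and a separate set of 60S factors fold and cut it, and the RNA exosome trims and degrades the spacers. MYC raises transcription of many genes in each of these steps, binding with its partner MAX to the E-box CACGTG, and pluripotent stem cells, which divide fast, are known for high ribosome production.

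All values are normalized log2 probe intensities, and a difference is the first-named condition minus the second on that scale. Each gene is read from its brightest detected probe. It counts as measured where all arrays of a comparison detected that probe. Intensities of different probes are not set against each other, because probes differ in brightness. Each array holds bulk RNA, so fewer cells with a transcript and less of it per cell cannot be told apart.

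All 10 marker genes of pluripotent stem cells were detected on every array. Their summed normalized intensity was 49651 and 43946 on the dense bicarbonate and dense control arrays, against 56264 and 50880 on the sparse bicarbonate and sparse control arrays. At high density 4 of the 10 were at least 1.5-fold lower and 0 higher in control medium, with a median of -0.38, and 3 were lower and 0 higher with bicarbonate, with a median of -0.21. The share of lower genes and the median of these markers in control medium were thus near those of the ribosome biogenesis genes given below, and their part in the results was not tested. None of 5 markers each of neuroectoderm, primitive streak and mesoderm, or trophoblast and amnion was detected. Of 5 endoderm markers only FOXA2 was, on the 2 sparse arrays. Of 7 fibroblast markers COL1A1, COL1A2 and THY1 were detected, with sums of 7316 and 8176 on the dense bicarbonate and dense control arrays against 5040 and 5823 on the sparse ones, while COL3A1, DCN, LUM and POSTN were not above background. That sum moved with density and was mostly THY1. THY1 stood at 12.52 (dense bicarbonate) and 12.84 (dense control), against 12.12 (sparse bicarbonate) and 12.31 (sparse control). Bicarbonate over control at high density gave -0.32 for THY1, 0.99 for COL1A1 and 0.58 for COL1A2. The part of these genes in the results below was not tested. The arrays had 14128 to 15213 detected probes, and the median intensity before normalization was 117.4 on the dense bicarbonate array against 153.5 to 166.6 on the other three.

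High density went with lower levels of ribosome biogenesis genes in both media. These genes were chosen with earlier results of these data known. UTP14A, EXOSC4, RRP9, RRS1 and NOP56 had already been seen to be lower, which limits the comparison with all genes. Of 45 measured in control medium, 19 were at least 1.5-fold lower at high than at low density, against 11.9% of all genes, and 1 was at least 1.5-fold higher, against 12.0% of all. Their median log2 difference was -0.37, against 0.01 over all 8936 measured genes. With bicarbonate 21 of 44 were at least 1.5-fold lower (12.0% of all) and 1 was higher (11.5% of all), with a median of -0.53 against -0.03 over all 8836. On 32 of 44 genes both dense arrays lay below both sparse arrays, an order seen in 31.3% of all genes, and on 4 both lay above, which 29.1% of all did. At a 2-fold limit 9 genes were lower in control medium (2.84% of all) and 6 with bicarbonate (2.93% of all). The 9 include UTP14A, EXOSC4, RRP9, RRS1 and NOP56, which had already been seen to be lower. Without background correction only UTP14A, EXOSC4 and NOP56 of the 9 stayed at least 2-fold lower in control medium. LTV1, NIP7, RRS1, RRP9, RRP1B and NOC4L then fell short of 2-fold.

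**Figure D1:**
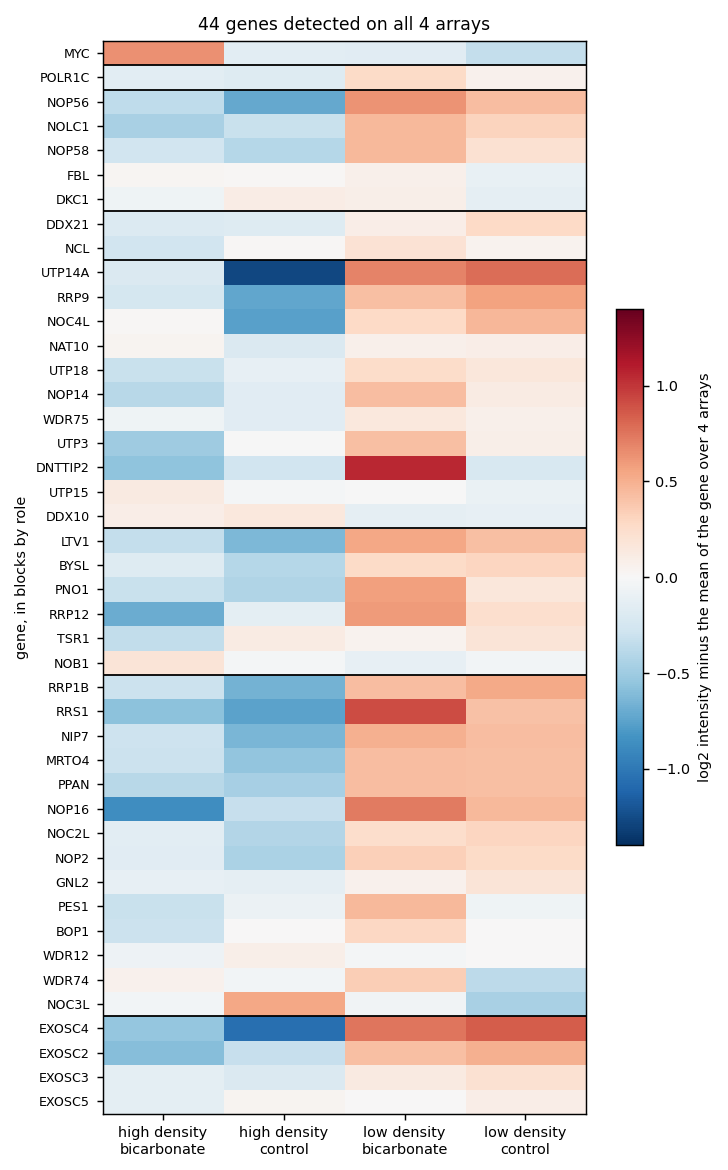
Normalized log2 intensity of each of the 44 genes detected on all 4 arrays, as the difference from that gene's mean over the arrays (colour, log2 units), in blocks from the top for MYC, RNA polymerase I, snoRNP proteins, nucleolar proteins, small subunit processome, late 40S maturation, 60S assembly and exosome. On 32 genes both dense arrays lay below both sparse arrays, and MYC in the top row was highest on the dense bicarbonate array.

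MYC was not among the genes that were lower at high density. Its level was 10.86 (dense bicarbonate) and 10.07 (dense control), against 10.06 (sparse bicarbonate) and 9.88 (sparse control). The dense bicarbonate array was the highest of the 4 and the other three lay close together. High over low density gave a difference of 0.80 (1.74-fold) with bicarbonate and of 0.19 in control medium. Bicarbonate over control gave 0.78 (1.72-fold) at high density and 0.18 at low density. With arrays set to equal medians the high-density value was 0.53, short of 1.5-fold. The second MYC probe read 10.73 (dense bicarbonate) and 10.01 (dense control), against 9.68 (sparse bicarbonate) and 9.89 (sparse control), so both probes placed the dense bicarbonate array highest but disagreed on the sign at low density, where the second gave -0.21. MYCN, a paralog of MYC, stood at 11.58 (dense bicarbonate) and 11.37 (dense control), against 11.29 (sparse bicarbonate) and 11.18 (sparse control).

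**Figure D2:**
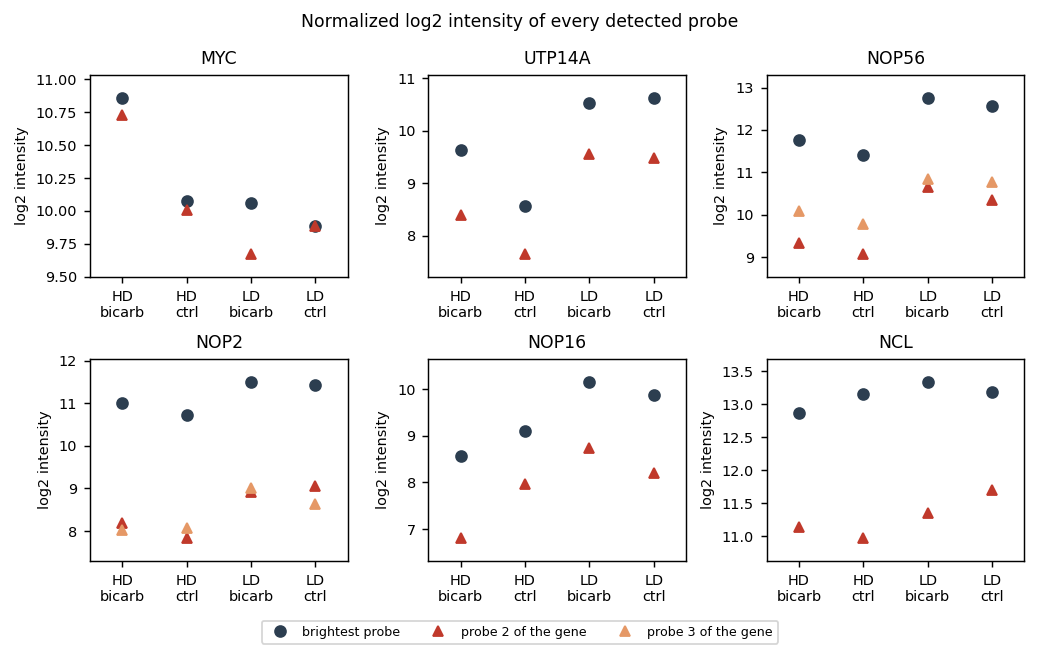
Normalized log2 intensity (y axis, a separate range in each panel) of every detected probe of 6 genes on the high density (HD) and low density (LD) arrays with bicarbonate (bicarb) or in control medium (ctrl), with the brightest probe as circles and further probes as triangles. Both MYC probes are highest on the dense bicarbonate array, and all probes of UTP14A, NOP56, NOP2 and NOP16 are lower on both dense arrays than on both sparse arrays.

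The RNA polymerase I subunits gave few usable values. POLR1C, which RNA polymerase III also uses, stood at 9.97 (dense bicarbonate) and 9.93 (dense control), against 10.38 (sparse bicarbonate) and 10.18 (sparse control), and its second probe also had both dense arrays below both sparse ones. POLR1A, the largest subunit, had 6.17 (dense bicarbonate) and 6.15 (dense control), against 6.56 (sparse bicarbonate) and 6.77 (sparse control), but was detected on the 2 sparse arrays only. POLR1B, the second-largest subunit, was at 6.26 (dense bicarbonate) and 5.47 (dense control), against 6.39 (sparse bicarbonate) and 6.65 (sparse control), with the sparse control array alone above the detection limit. Where one side was not well above background, a fold is only a bound, taken from the dim probe's value or, if higher, from the lowest detected value on its array. In control medium POLR1A was at least 1.28-fold lower and POLR1B at least 1.18-fold lower at high density.

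Among the snoRNP proteins, the box C/D scaffold pair and an assembly factor were lower at high density and both catalytic subunits were not. NOP56 and NOP58 form the paired scaffold of box C/D particles, which guide methylation of ribosomal RNA. NOP56 was at 11.77 (dense bicarbonate) and 11.41 (dense control), against 12.76 (sparse bicarbonate) and 12.56 (sparse control). Its density difference was -0.99 with bicarbonate and -1.15 (2.22-fold) in control medium, and its other probes gave -1.31 and -0.76 with bicarbonate and -1.26 and -0.99 in control medium. NOP58 stood at 10.50 (dense bicarbonate) and 10.37 (dense control), against 11.22 (sparse bicarbonate) and 10.98 (sparse control). NOLC1, a chaperone of snoRNP assembly, stood at 8.25 (dense bicarbonate) and 8.40 (dense control), against 9.16 (sparse bicarbonate) and 9.02 (sparse control). On these 3 genes both dense arrays lay below both sparse arrays, as in 31.3% of all genes. FBL, the methyltransferase of the box C/D particle, lay within a range of 0.18 over the 4 arrays, at 12.60 (dense bicarbonate) and 12.59 (dense control), against 12.65 (sparse bicarbonate) and 12.47 (sparse control). DKC1, the pseudouridine synthase of box H/ACA particles, lay within 0.23, at 12.02 (dense bicarbonate) and 12.19 (dense control), against 12.16 (sparse bicarbonate) and 11.96 (sparse control).

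The abundant nucleolar proteins differed little on their brightest probes. NCL, nucleolin, stood at 12.87 (dense bicarbonate) and 13.16 (dense control), against 13.34 (sparse bicarbonate) and 13.19 (sparse control), and its second probe gave a density difference of -0.72 in control medium where the brightest gave -0.03. DDX21, a helicase that links RNA polymerase I to RNA processing, stood at 11.03 (dense bicarbonate) and 11.04 (dense control), against 11.32 (sparse bicarbonate) and 11.50 (sparse control). Both DDX21 differences by density, -0.29 with bicarbonate and -0.46 in control medium, were under 1.5-fold.

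The small subunit processome held the largest single difference in control medium. UTP14A, a processome protein whose yeast counterpart activates the helicase that releases the U3 RNA, stood at 9.64 (dense bicarbonate) and 8.57 (dense control), against 10.53 (sparse bicarbonate) and 10.63 (sparse control). Its dense control array lay farthest down, 4.17-fold below the sparse control, and the dense bicarbonate array lay between it and the sparse pair. The second UTP14A probe gave density differences of -1.17 with bicarbonate and -1.83 in control medium. The intronless copy UTP14C is similar enough that probes may cross-react, and its own probe read 8.74 (dense bicarbonate) and 8.41 (dense control), against 8.88 (sparse bicarbonate) and 8.63 (sparse control).

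RRP9, a protein specific to the U3 particle, stood at 7.72 (dense bicarbonate) and 7.24 (dense control), against 8.39 (sparse bicarbonate) and 8.54 (sparse control). NOC4L, the partner of NOP14, stood at 8.003 (dense bicarbonate) and 7.24 (dense control), against 8.27 (sparse bicarbonate) and 8.45 (sparse control). RRP9 and NOC4L shared with UTP14A an order in which the dense control array was lowest and the dense bicarbonate array came next. Their density differences were -0.67 and -0.27 with bicarbonate, against -1.295 and -1.22 in control medium.

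DNTTIP2, UTP3 and NOP14 had another order, with the dense bicarbonate array lowest and the sparse bicarbonate array highest. DNTTIP2, a processome protein, stood at 6.87 (dense bicarbonate) and 7.16 (dense control), against 8.49 (sparse bicarbonate) and 7.20 (sparse control). The sparse bicarbonate array stood apart, which made the density difference -1.62 (3.08-fold) with bicarbonate and -0.04 in control medium. DNTTIP2 has a single probe, and its value with bicarbonate was -1.03 without background correction. UTP3, the counterpart of yeast Sas10, stood at 9.17 (dense bicarbonate) and 9.67 (dense control), against 10.10 (sparse bicarbonate) and 9.76 (sparse control). NOP14 gave -0.82 with bicarbonate and -0.27 in control medium, and -0.51 and -0.13 on its second probe.

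UTP20, a large scaffold protein, was detected on the other three arrays but not on the dense bicarbonate array, at 6.14 (dense bicarbonate) and 6.98 (dense control), against 8.08 (sparse bicarbonate) and 7.64 (sparse control). It was at least 3.42-fold lower at high density with bicarbonate and gave -0.65 in control medium, where it was -0.38 without background correction.

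The remaining processome genes differed less. UTP18 gave -0.57 with bicarbonate and -0.28 in control medium, and WDR75 gave -0.21 and -0.22. NAT10, the enzyme that acetylates 18S ribosomal RNA, gave -0.03 with bicarbonate and -0.30 in control medium. UTP15 stood at 7.84 (dense bicarbonate) and 7.68 (dense control), against 7.71 (sparse bicarbonate) and 7.62 (sparse control). The helicase DDX10 stood at 10.25 (dense bicarbonate) and 10.31 (dense control), against 10.03 (sparse bicarbonate) and 10.04 (sparse control). On DDX10 both dense arrays lay above both sparse arrays (29.1% of all genes), the reverse of most of its group. In all, 4 of 12 measured processome genes were at least 1.5-fold lower in control medium (11.9% of all genes) and 5 of 11 with bicarbonate (12.0% of all).

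Of the 6 late 40S factors, 2 were at least 1.5-fold lower at high density in control medium (11.9% of all genes) and 3 with bicarbonate (12.0% of all). LTV1, an export factor of the pre-40S particle, stood at 10.24 (dense bicarbonate) and 9.95 (dense control), against 11.12 (sparse bicarbonate) and 10.995 (sparse control). PNO1, the partner of the endonuclease NOB1, stood at 9.54 (dense bicarbonate) and 9.43 (dense control), against 10.43 (sparse bicarbonate) and 10.01 (sparse control). BYSL, the counterpart of yeast Enp1, stood at 9.67 (dense bicarbonate) and 9.44 (dense control), against 10.11 (sparse bicarbonate) and 10.15 (sparse control). On LTV1, PNO1 and BYSL both dense arrays lay below both sparse arrays, as in 31.3% of all genes. The PNO1 difference of -0.58 in control medium lay just short of 1.5-fold. RRP12, another export factor, stood at 8.32 (dense bicarbonate) and 8.87 (dense control), against 9.60 (sparse bicarbonate) and 9.24 (sparse control), which gave -1.28 with bicarbonate and -0.37 in control medium. NOB1, which makes the final cut of 18S ribosomal RNA, stood at 8.97 (dense bicarbonate) and 8.77 (dense control), against 8.67 (sparse bicarbonate) and 8.76 (sparse control). TSR1, which keeps pre-40S particles from initiating too soon, gave -0.38 with bicarbonate and -0.07 in control medium.

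The 60S factors were the largest group. At high density 8 of 14 measured were at least 1.5-fold lower in control medium (11.9% of all genes) and 8 of 14 with bicarbonate (12.0% of all). They were not all the same genes, since NOP2 and NOC2L passed in control medium only and BOP1 and PES1 with bicarbonate only. RRP1B, a pre-rRNA processing factor, stood at 8.01 (dense bicarbonate) and 7.65 (dense control), against 8.74 (sparse bicarbonate) and 8.84 (sparse control). RRS1, which helps to bring in the 5S particle, stood at 8.56 (dense bicarbonate) and 8.38 (dense control), against 10.04 (sparse bicarbonate) and 9.54 (sparse control). NIP7 stood at 9.67 (dense bicarbonate) and 9.31 (dense control), against 10.45 (sparse bicarbonate) and 10.39 (sparse control). In each of these the dense arrays lay at least 0.73 below the sparse array of the same medium. NOP16 stood at 8.56 (dense bicarbonate) and 9.11 (dense control), against 10.15 (sparse bicarbonate) and 9.88 (sparse control), and its difference of -1.60 (3.02-fold) with bicarbonate was -1.93 on the second probe. In control medium the brightest NOP16 probe gave -0.78 and the second -0.23, which is short of 1.5-fold.

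MRTO4 gave -0.73 with bicarbonate and -0.96 in control medium, and PPAN gave -0.83 and -0.89. The neighbouring readthrough transcript of PPAN and P2RY11 has a probe of its own, detected on the 2 sparse arrays only. NOC2L gave -0.40 with bicarbonate and -0.71 in control medium. NOP2, which methylates 28S ribosomal RNA, gave -0.49 with bicarbonate and -0.71 in control medium, and its other probes gave -0.73 and -0.97 with bicarbonate and -1.23 and -0.57 in control medium. Every detected NOP2 probe had both dense arrays below both sparse arrays.

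The PeBoW complex of PES1, BOP1 and WDR12, which processes the 28S precursor, gave density differences of -0.02, 0.01 and 0.08 in control medium. With bicarbonate PES1 (-0.76) and BOP1 (-0.59) were lower at high density and WDR12 was at -0.04. PES1 stood at 8.45 (dense bicarbonate) and 8.67 (dense control), against 9.20 (sparse bicarbonate) and 8.70 (sparse control), so the sparse bicarbonate array was the one that stood apart. GNL2, a GTPase of pre-60S export, gave -0.17 with bicarbonate and -0.31 in control medium. WDR74 stood at 8.14 (dense bicarbonate) and 8.04 (dense control), against 8.43 (sparse bicarbonate) and 7.71 (sparse control). NOC3L was the 1 gene at least 1.5-fold higher at high density in control medium, at 9.71 (dense bicarbonate) and 10.29 (dense control), against 9.69 (sparse bicarbonate) and 9.30 (sparse control). Its difference was 0.996 there and 0.01 with bicarbonate, and it has a single probe.

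Of the exosome subunits, EXOSC4 and EXOSC2 were lower at high density in both media. EXOSC4, of the core ring, stood at 7.28 (dense bicarbonate) and 6.78 (dense control), against 8.57 (sparse bicarbonate) and 8.68 (sparse control), or 2.45-fold lower with bicarbonate and 3.74-fold lower in control medium. Without background correction the log2 difference in control medium was -1.22 in place of -1.90. EXOSC2, an RNA-binding cap subunit, stood at 7.57 (dense bicarbonate) and 7.84 (dense control), against 8.58 (sparse bicarbonate) and 8.66 (sparse control). Both genes have 1 probe each, on which both dense arrays lay below both sparse arrays, as in 31.3% of all genes. EXOSC3, another cap subunit, stood at 11.34 (dense bicarbonate) and 11.28 (dense control), against 11.61 (sparse bicarbonate) and 11.70 (sparse control). Its density difference was -0.27 with bicarbonate and -0.42 in control medium, and its second probe gave -0.60 and 0.04. EXOSC5, of the ring, stood at 8.79 (dense bicarbonate) and 8.97 (dense control), against 8.94 (sparse bicarbonate) and 9.02 (sparse control).

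**Figure D3:**
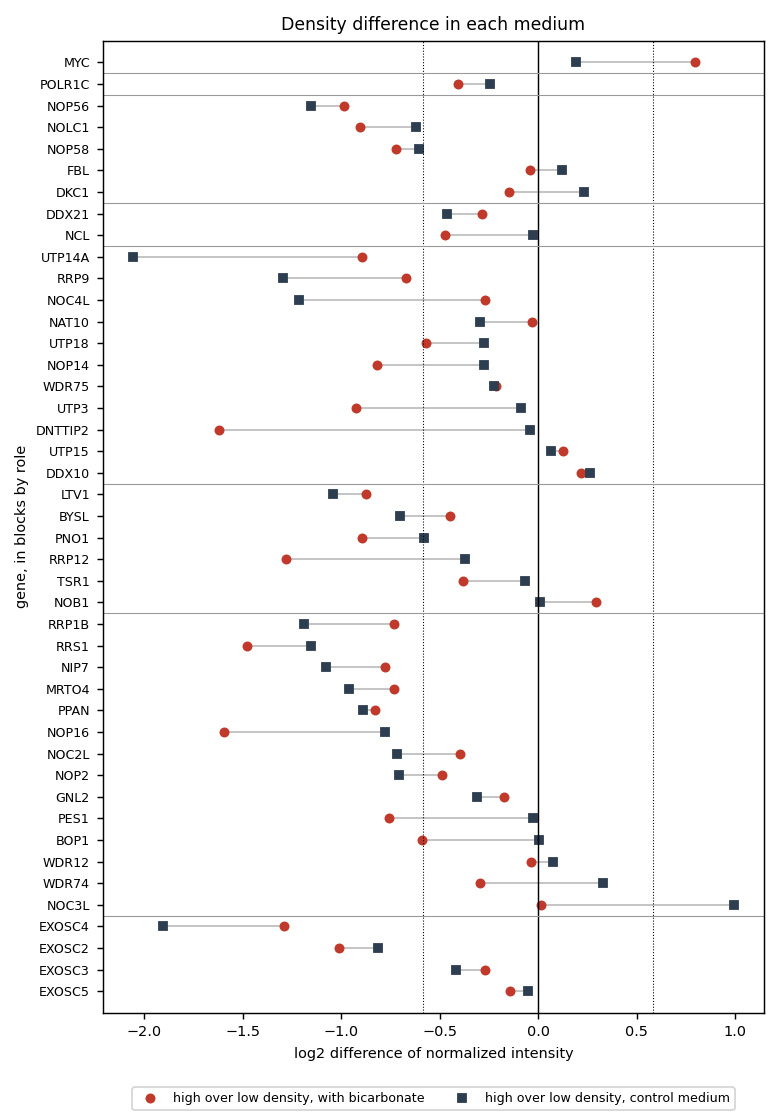
Log2 difference of high over low density (x axis) for each of the 44 genes detected on all 4 arrays (y axis, in blocks by role), with bicarbonate (circles) and in control medium (squares), with dotted lines at 1.5-fold. The squares of UTP14A (-2.06) and EXOSC4 (-1.90) lie farthest left, the circle of DNTTIP2 (-1.62) is farthest from its own square, and MYC (0.80) is the one circle past the right dotted line.

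The density differences in both media share no array. Across the 44 genes detected on all arrays they had a Pearson correlation of 0.56 and a Spearman correlation of 0.62, as a description across genes, which are not independent and were normalized together, beside 0.58 and 0.54 across all 8554 genes. Both differences were below 0 for 34 genes, against 34.7% of all. At least 1.5-fold lower in both media were 14 genes, against 5.17% of all genes, namely NOP56, NOP58, NOLC1, RRP9, UTP14A, LTV1, NOP16, RRS1, RRP1B, MRTO4, PPAN, NIP7, EXOSC2 and EXOSC4. Of these, 7 stayed at least 1.5-fold lower in both media under every alternative processing that measured them, namely NOP56, UTP14A, LTV1, RRS1, NIP7, EXOSC2 and EXOSC4. The other 7 fell short in 1 medium under at least 1 alternative. Without background correction NOP58 gave -0.57 and NOLC1 -0.48 in control medium, and RRP9 (-0.47), RRP1B (-0.54), MRTO4 (-0.56) and PPAN (-0.57) fell short with bicarbonate. NOP16 did so on its second probe. For the 7 that stayed, several alternatives could change little. The detection limit of 0.05 and the intensity limit of 8 act on which genes are measured and moved 0 single-gene values. LTV1, RRS1, NIP7, EXOSC2 and EXOSC4 have 1 probe each, so the alternatives on probes could not change them. UTP14A, EXOSC4, RRS1 and NOP56 had already been seen to be lower when the genes were chosen. The 14 genes are 77.8% of the 18 genes lower in control medium and 66.7% of the 21 lower with bicarbonate. Of all 8554 genes, 1053 were that much lower in control medium, 1000 with bicarbonate and 442 in both. NOC4L, BYSL, NOP2 and NOC2L passed the limit in control medium only, and UTP3, NOP14, DNTTIP2, PNO1, RRP12, BOP1 and PES1 with bicarbonate only. Whether the 2 media differ for these genes was not tested.

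Added bicarbonate made no large difference to most of these genes at high density. Of 44 measured, 3 were at least 1.5-fold higher with bicarbonate than in the dense control (4.49% of all genes) and 1 was lower (4.47% of all), and the median was 0.07 against 0.02 over all 9188 measured genes. The sign of that median depended on the scaling, at -0.17 when arrays were set to equal medians, where the median of all genes was -0.14. The 3 higher genes were UTP14A (1.07, and 0.73 on its second probe), MYC (0.78) and NOC4L (0.77, and 0.09 on its second probe), and NOC3L was lower (-0.58, at the limit itself). EXOSC4 (0.51) and RRP9 (0.48) came next above, and RRP12 (-0.55), NOP16 (-0.55) and UTP3 (-0.50) were the lowest measured after NOC3L. UTP20, not detected on the dense bicarbonate array, was at least 1.60-fold lower with bicarbonate. The NOC4L value was 0.48 and that of NOC3L -0.52 without background correction, both short of 1.5-fold.

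Of the 18 genes at least 1.5-fold lower at high density in control medium and measured with bicarbonate, 14 were past that limit with bicarbonate too and 0 were above 0. The difference was nearer 0 with bicarbonate for 13 of the 18 and farther below 0 for 5. The 18 were picked by their low value in control medium, so these counts do not show an effect of bicarbonate. Without that choice, it was nearer 0 with bicarbonate for 24 of the 44 genes, against 4342 of all 8554. Both density comparisons and the bicarbonate comparison at high density share arrays, so the values are given side by side and no relation is drawn between them. UTP14A stood 2.06 below the sparse control in control medium and 0.90 below the sparse bicarbonate array with bicarbonate. Among the 5 that stood farther below, NOP16 was 0.78 below in control medium and 1.60 below with bicarbonate, and RRS1 was 1.15 and 1.48 below.

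At low density 2 of 46 genes stood at least 1.5-fold higher with bicarbonate (2.24% of all genes) and 0 were lower (1.48% of all), with a median of 0.09 against 0.03 over all 8973, and of -0.02 against -0.11 when arrays were set to equal medians. The 2 genes were DNTTIP2 (1.29, 2.44-fold) and WDR74 (0.72), each read by 1 detected probe, and WDR74 was at 0.50 without background correction. PES1 (0.51) and RRS1 (0.50) followed, and the lowest were POLR1A (-0.21), DDX21 (-0.18), NOC4L (-0.18) and RRP9 (-0.14). Second probes agreed in sign with the brightest for 4 of 12 genes here, against 12 of 12 for density with bicarbonate, 10 of 11 for density in control medium and 8 of 11 for bicarbonate at high density. Over all genes with a second probe the sign agreed for 1008 of 1860 here. It agreed for 1328 of 1828 for density with bicarbonate, 1259 of 1884 for density in control medium and 1213 of 1945 for bicarbonate at high density.

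The bicarbonate difference at high density minus that at low density was at least 1.5-fold in the positive direction for 5 of 44 genes (10.4% of all genes) and in the negative direction for 8 (10.7% of all), with a median of -0.07 against 0.00 over all 8554. The share in the negative direction was 18.2% of the 44 genes and that in the positive direction 11.4%. Bicarbonate differences of opposite sign at the 2 densities that lay at least 1.5-fold apart were found in 11 of the 44, against 19.3% of all genes. The highest were UTP14A (1.16), NOC4L (0.94), RRP9 (0.62), EXOSC4 (0.61) and MYC (0.61), and the lowest were DNTTIP2 (-1.58), NOC3L (-0.98), RRP12 (-0.91) and UTP3 (-0.84). The MYC value fell short of 1.5-fold without background correction (0.56), with equal medians (0.46) and with the authors' log2 values (0.57). Those of RRP9 and EXOSC4 fell short without background correction (0.40 and 0.35).

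**Figure D4:**
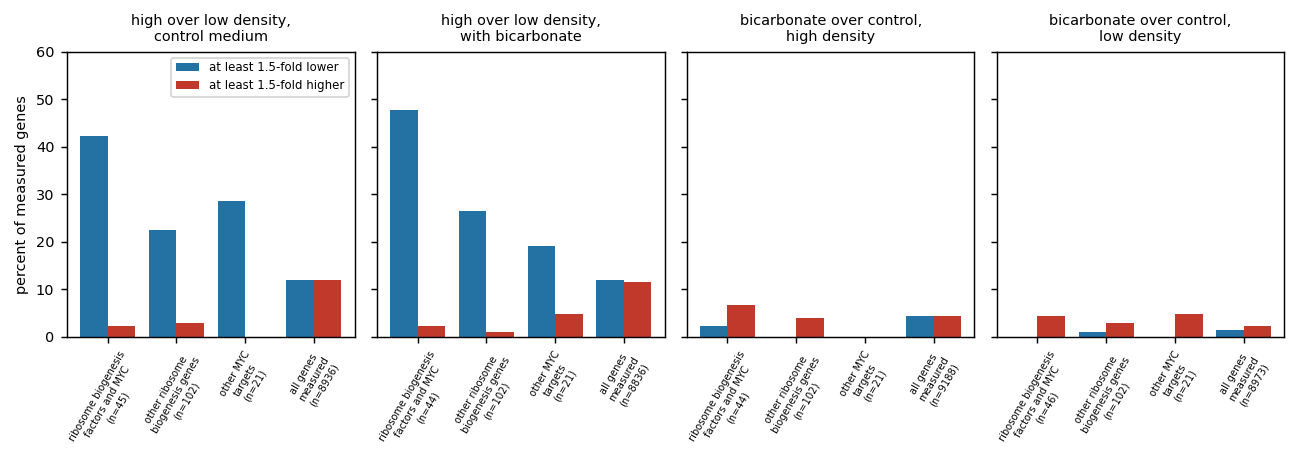
Share of measured genes (y axis, percent) past 1.5-fold in each direction in each comparison, for the ribosome biogenesis factors and MYC, for 2 further gene lists and for all measured genes, with the number measured under each bar pair. In both density comparisons the blue bar for lower genes is tallest in the first list (42.2% in control medium, 47.7% with bicarbonate), and in both bicarbonate comparisons no bar reaches 10%. The first list was chosen with some of its genes already seen to be lower at high density.

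Other genes of ribosome assembly, listed by role, were lower at high density as well, by smaller shares. The main list was chosen after UTP14A, EXOSC4, RRP9, RRS1 and NOP56 had been seen to be lower, which limits this contrast. Of 116 other genes listed, 102 were measured. Control medium gave 23 at least 1.5-fold lower (11.9% of all genes), 3 higher (12.0% of all) and a median of -0.27. Bicarbonate medium gave 27 lower (12.0% of all), 1 higher (11.5% of all) and a median of -0.40. In the 40S list 9 of 33 were lower and 0 higher in control medium, led by TBL3 (-1.01) and UTP4 (-0.91). In the 60S list 11 of 45 lay lower and 2 higher in control medium, led by the ribosomal RNA methyltransferase FTSJ3 (-1.34) on one side and by the helicase DDX31 (1.06) on the other. In the RNA polymerase I list 3 of 12 were lower and 1 higher in control medium, with the transcription factor UBTF at -1.12 and TAF1D at 1.07. In the same medium 0 of 5 further snoRNP proteins passed 1.5-fold, with NAF1 (-0.30) and GAR1 (-0.27) the most different. With bicarbonate 1 of the 5 did, GAR1 (-0.61). Of 7 further exosome genes 0 passed in either medium, with EXOSC10 at -0.58 and EXOSC8 at 0.43 in control medium. In control medium and with bicarbonate the medians were -0.35 and -0.44 in the 40S list and -0.31 and -0.37 in the 60S list. They were 0.02 and -0.26 in the RNA polymerase I list. The further snoRNP proteins gave -0.12 and -0.48, and the further exosome genes -0.04 and 0.02.

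MYC targets outside ribosome biogenesis gave 6 of 21 lower (11.9% of all genes) and 0 higher (12.0% of all) at high density in control medium, with a median of -0.38. Bicarbonate medium gave 4 lower (12.0% of all), 1 higher (11.5% of all) and a median of -0.32. Of 2 enzymes of polyamine synthesis, ODC1 was at least 1.5-fold lower in both media. AMD1 was so in control medium only, at -1.02 there and -0.39 with bicarbonate. AMD1 stood at 7.88 (dense bicarbonate) and 7.78 (dense control), against 8.28 (sparse bicarbonate) and 8.81 (sparse control), and ODC1 at 10.51 and 10.56 against 11.49 and 11.51 on the same arrays. In the list of MYC paralogs, MAX partners and MYC turnover, 2 of 7 measured genes were lower in control medium, CIP2A (-1.17), which stabilizes the MYC protein, and MLX (-0.59). With bicarbonate CIP2A and MLX stood at -0.32 and 0.27, and 1 of 7 was at least 1.5-fold lower, MXD4 (-0.84). The median of this list was 0.08 in control medium and 0.02 with bicarbonate. MAX was detected on the 2 dense arrays and not well above background on the 2 sparse ones.

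The promoters of 42 of the 50 genes were in a RefSeq table for the build GRCh38.p14, as 300 bases from 250 before the transcription start to 50 after it. The E-box CACGTG, which reads the same on both strands, was in 17 of the 42 (40.5%), against 760 of 7063 promoters of genes detected on every array (10.8%) and 7.43% of all 27305. Of its 19 copies, 16 began within 50 bases of the start site. No promoter was at hand for MYC, NOP58, NOLC1, RRP12, RRS1, BOP1, RRP1B and EXOSC4. Of the 19 genes at least 1.5-fold lower at high density in control medium, 14 thus had a promoter. The E-box was in 7 of these 14 and in 9 of 23 of the other measured genes. A match describes the letters of this window and does not show binding.

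Promoters are printed for 3 genes that were lower at high density and carry the E-box (UTP14A, RRP9 and MRTO4), for 1 that was lower and has none in the window (NOP56), for 1 that differed little (FBL) and for 1 that was higher in control medium (NOC3L). These 6 were chosen after their values were seen. Each runs 5′ to 3′ on the strand of the gene, from 250 bases before the start to the first 30 bases of the transcript, with the E-box in capitals. The E-box begins at position -241 from the start in UTP14A and -5 in RRP9, and at base 15 of the transcript in MRTO4, base 7 in FBL and base 20 in NOC3L.
UTP14A (chrX:129905914-129906193, plus strand): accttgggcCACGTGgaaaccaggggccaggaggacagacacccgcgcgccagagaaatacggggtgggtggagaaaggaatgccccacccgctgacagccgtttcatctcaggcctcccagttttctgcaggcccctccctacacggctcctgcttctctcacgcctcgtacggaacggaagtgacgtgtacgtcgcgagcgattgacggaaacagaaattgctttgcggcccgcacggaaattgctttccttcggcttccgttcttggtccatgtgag
RRP9 (chr3:51941875-51942154, minus strand): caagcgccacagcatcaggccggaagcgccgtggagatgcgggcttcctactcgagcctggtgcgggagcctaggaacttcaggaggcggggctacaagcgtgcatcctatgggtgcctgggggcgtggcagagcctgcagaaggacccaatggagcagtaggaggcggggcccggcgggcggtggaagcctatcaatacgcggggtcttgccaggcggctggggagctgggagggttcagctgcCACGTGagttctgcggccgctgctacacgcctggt
MRTO4 (chr1:19251555-19251834, plus strand): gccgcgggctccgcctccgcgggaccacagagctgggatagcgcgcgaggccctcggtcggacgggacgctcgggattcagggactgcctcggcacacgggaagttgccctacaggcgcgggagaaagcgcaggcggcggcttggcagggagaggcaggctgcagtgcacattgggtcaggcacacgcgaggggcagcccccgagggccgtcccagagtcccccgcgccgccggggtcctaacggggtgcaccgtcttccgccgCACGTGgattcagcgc
NOP56 (chr20:2652382-2652661, plus strand): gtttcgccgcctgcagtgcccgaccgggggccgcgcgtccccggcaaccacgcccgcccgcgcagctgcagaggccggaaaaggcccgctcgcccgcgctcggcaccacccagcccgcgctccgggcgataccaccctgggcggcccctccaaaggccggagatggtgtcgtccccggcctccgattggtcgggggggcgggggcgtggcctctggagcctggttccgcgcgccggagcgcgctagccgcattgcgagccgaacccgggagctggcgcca
FBL (chr19:39846350-39846629, minus strand): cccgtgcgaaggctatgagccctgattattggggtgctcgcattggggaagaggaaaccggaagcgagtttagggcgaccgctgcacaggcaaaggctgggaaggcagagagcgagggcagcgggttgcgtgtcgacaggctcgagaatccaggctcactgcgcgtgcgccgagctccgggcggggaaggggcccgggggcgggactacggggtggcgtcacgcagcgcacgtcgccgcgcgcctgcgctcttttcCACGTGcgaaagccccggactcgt
NOC3L (chr10:94362910-94363189, minus strand): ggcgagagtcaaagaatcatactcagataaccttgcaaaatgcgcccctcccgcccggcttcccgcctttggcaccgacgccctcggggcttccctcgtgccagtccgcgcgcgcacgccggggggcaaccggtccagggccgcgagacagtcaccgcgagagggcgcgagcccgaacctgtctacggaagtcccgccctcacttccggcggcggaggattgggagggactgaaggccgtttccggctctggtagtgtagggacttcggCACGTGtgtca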

How the data were processed

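Total RNA of 4 cultures was read on Illumina expression arrays as biotin-labelled cRNA, per the labels' protocols. The authors deposited 1 unnormalized intensity per probe and array with a detection p-value, per the file headers, and log2 values of the same arrays with medians of 6.02 on each. The log scale was read from the values. How the authors made them is not given in the sources used here.

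The intensities were corrected for background and quantile-normalized by the neqc function (limma 3.58.1, R 4.3.3), with an offset of 16 and the background inferred from the detection p-values. Normalization sets the 4 distributions equal, so each difference is relative to other genes, and a change common to all genes would not be seen. Further steps used Python 3.11.15, numpy 2.4.6, pandas 2.3.3 and matplotlib 3.10.9. Probe names came from the platform annotation. It gave 1 symbol to 30098 of 47293 probes, several to 8 and none to 17187, and gene IDs of 30059 were found in a RefSeq gene table. Groups came from the sample titles.

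The genes and lists were chosen with earlier results of these data known, and UTP14A, EXOSC4, RRP9, RRS1 and NOP56 had already been seen to be lower. Given array by array are MYC, all measured genes of roles with up to 5 genes, the 3 most different by density in control medium of other roles, and the 4 highest and 4 lowest in each other comparison. From other lists the 2 most different measured genes are named. MYCN, MAX and the MYC-list genes at other contrasts were added after their values were seen. No test was made, since each group has 1 array, so counts past 1.5-fold and medians are given beside those of all genes. The procedure was tested on simulated arrays with planted changes. Alternatives were no background correction, equal medians, the authors' log2 values, a detection p-value limit of 0.05, a log2 intensity of at least 8, the mean of all detected probes and the second brightest probe.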

Additional observations from a re-analysis of the deposited data

Results flagged for a closer look

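Of the 44 detected on all arrays, 11 genes had bicarbonate differences of opposite sign at the 2 densities that were at least 1.5-fold apart, against 19.3% of all genes. Each density has 1 array per medium, so the difference between densities was not tested. The bicarbonate difference at high density minus that at low density was 1.16 for UTP14A, 0.94 for NOC4L, 0.62 for RRP9 and 0.61 for EXOSC4, which were higher with bicarbonate at high density and slightly lower at low density. It was -1.58 for DNTTIP2, -0.98 for NOC3L, -0.91 for RRP12, -0.84 for UTP3, -0.82 for NOP16, -0.73 for PES1 and -0.59 for BOP1, which were lower with bicarbonate at high density and higher at low density. On the second probe the value was 0.65 for UTP14A, 0.55 for NOC4L and -1.705 for NOP16, and the other 8 genes had no second detected probe. The second UTP14A probe was slightly higher with bicarbonate at low density (0.08), so the opposite sign did not hold on it. Without background correction RRP9 (0.40), EXOSC4 (0.35), BOP1 (-0.56) and PES1 (-0.58) were less than 1.5-fold apart. With the authors' log2 values RRP9 (0.575) and EXOSC4 (0.56) also fell short.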

How the results depend on the processing

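The counts of genes at least 1.5-fold lower at high density stayed within 1.5 times of 19 in control medium and of 21 with bicarbonate, except for 10 of 32 in control medium with a log2 intensity of at least 8, and for second brightest probes, which left 5 of 11 in control medium and 7 of 12 with bicarbonate. Both medians by density stayed below 0 under every alternative run. That in control medium was -0.56 on the second probes of 11 genes, whose brightest probes gave -0.42, and that with bicarbonate was -0.67 with equal medians, where all genes stood at -0.11. With equal medians the bicarbonate median was -0.17 at high density and -0.018 at low density, with all genes at -0.14 and -0.11. The median difference between both bicarbonate differences was 0.23 on the second probes of 11 genes, whose brightest probes gave 0.15, against -0.07 over 44 genes. Of 61 values of single genes past 1.5-fold, 0 changed sign and 22 fell short of 1.5-fold under at least 1 alternative that measured them, while second probes existed for 17 of them and a log2 intensity of at least 8 kept 39. Signal over background limits POLR1A, POLR1B, UTP20 and NPM1. No paired analysis was possible because the labels give no replicate numbers that pair samples across groups. A fit of density and bicarbonate as 2 additive terms, which would leave 1 residual degree of freedom, was not run.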

Other observations

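Other motifs were counted in the same promoter windows, on both strands. CCGGAA, the core of the ETS factor motif, was in 20 of the 42 promoters (47.6%), against 31.3% of promoters of genes detected on every array and 17.6% of all. GCATGC, the core of the NRF1 motif, was in 5 of 42 (11.9%), against 9.56% and 7.48%. It was in 0 of the 14 promoters at hand for genes at least 1.5-fold lower at high density in control medium. Among MYC targets, EIF4E, the cap-binding translation factor, was, like DNTTIP2, highest on the sparse bicarbonate array and lowest on the dense bicarbonate array, at 8.16 (dense bicarbonate) and 8.53 (dense control), against 9.13 (sparse bicarbonate) and 8.49 (sparse control). LDHA, which makes lactate, was, like MYC, highest on the dense bicarbonate array, at 13.50 (dense bicarbonate) and 13.11 (dense control), against 12.72 (sparse bicarbonate) and 12.77 (sparse control). EIF4E and LDHA were chosen after their values were seen.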
